A study of Sus scrofa with 15 samples.

Results

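Adipocytes release fatty acids when receptors on their surface permit it, and 9 genes of this control were followed in the backfat of Iberian pigs: the fatty acid receptor FFAR4, the catecholamine receptors ADRB1, ADRB3 and ADRA2A, the adenosine receptor ADORA1, the lactate receptor HCAR1, the natriuretic peptide receptors NPR1 and NPR3, and the protein kinase A subunit PRKAR2B. The genes were chosen by name for their role, with earlier results of these data known, so that counts of the genes that differed are a description and not those of an unselected set. Among the 30477 genes of each count file, 8 of the 9 were found. HCAR1 could not be matched to an identifier of the files and has no value here.

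The RNA came from subcutaneous fat of the dorsal lumbar region of 15 pigs, 5 per diet, all of the Iberian breed and all in the same growing period. Group C received a compound feed, group DOP a compound feed that contained dry olive pulp, and group WCOC a compound feed without by-product together with a silage of wet crude olive cake and barley straw offered without restriction. Compound feed was restricted in all groups and less strictly in C. Each diet was given in 1 pen, so that pen and diet cannot be told apart, and feed intake was not recorded per pig. The 5 pigs of a diet were taken from a larger group by the quantity and quality of their RNA. Each library held 22373715 to 34745218 read pairs on genes.

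In fat cells, hormones that couple to stimulatory G proteins (Gs) raise cyclic AMP, which frees the catalytic subunits of protein kinase A from their regulatory subunits. The kinase then acts on perilipin and hormone-sensitive lipase and triglycerides are broken down. Receptors that couple to inhibitory G proteins (Gi) lower cyclic AMP and restrain the process. Natriuretic peptides use a separate route through cyclic GMP. FFAR4 senses long-chain fatty acids, the product of lipolysis and of the diet.

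The RNA had the character of fat: the 11 matched adipocyte markers summed to 19933 to 29999 CPM (counts scaled by TMM to a common library size) in every library. Markers of other cell types differed between libraries. The 9 matched skeletal muscle markers summed to more than 1000 CPM in C1, C3, DOP2, DOP4 and DOP5, with 47876 CPM in DOP5, whereas the highest WCOC library had 739 CPM. The 11 matched macrophage markers summed to 190.3 to 534 CPM in C, 120.8 to 295 CPM in DOP and 104.8 to 230.4 CPM in WCOC, and were highest in C5 and C3. The 9 matched endothelial markers summed to 1046 to 1320 CPM in C, 1364 to 1751 CPM in DOP and 1172 to 1890 CPM in WCOC. In WCOC compared to C, 4 of 10 tested macrophage markers were downregulated, beside 3.93% of all genes. ADIPOQ among 11 adipocyte markers and ERG and CLDN5 among 9 endothelial markers were upregulated, beside 2.33% of all genes. The log2FC was above 0 for 0 of the macrophage markers (median -1.20), 7 of the adipocyte markers (median 0.16) and 9 of the endothelial markers (median 0.42). An unadjusted p under 0.05 in edgeR held for 10, 5 and 7 of them, beside 26.4% of all genes. LYZ, TNNI2 and CD79A, of the macrophage, muscle and lymphocyte lists, were listed at 0 in all libraries. In whole tissue, fewer cells of a type and less RNA per cell cannot be told apart.

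Set per kb of exon, PRKAR2B and NPR1 were the most abundant of the genes and ADRB3 the least. The mean level in C was 69.2 ± 10.7 CPM per kb for PRKAR2B and 68.2 ± 4.39 for NPR1, 44.2 ± 3.85 for FFAR4, 24.3 ± 4.05 for ADORA1, 2.89 ± 1.36 for NPR3, 2.31 ± 1.03 for ADRB1, 1.72 ± 0.747 for ADRA2A and 0.113 ± 0.0807 for ADRB3 (SD, n = 5). Over all 15 libraries the ranges of PRKAR2B, NPR1 and FFAR4 overlapped each other, as did those of ADRB1, NPR3 and ADRA2A. ADORA1 lay below every FFAR4 value and above every ADRB1 value, and ADRB3 lay below all others. The gene models of ADRB1 and ADRA2A hold coding sequence only, and that of FFAR4 little more, so that their levels per kb are set against a short length.

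**Figure D1:**
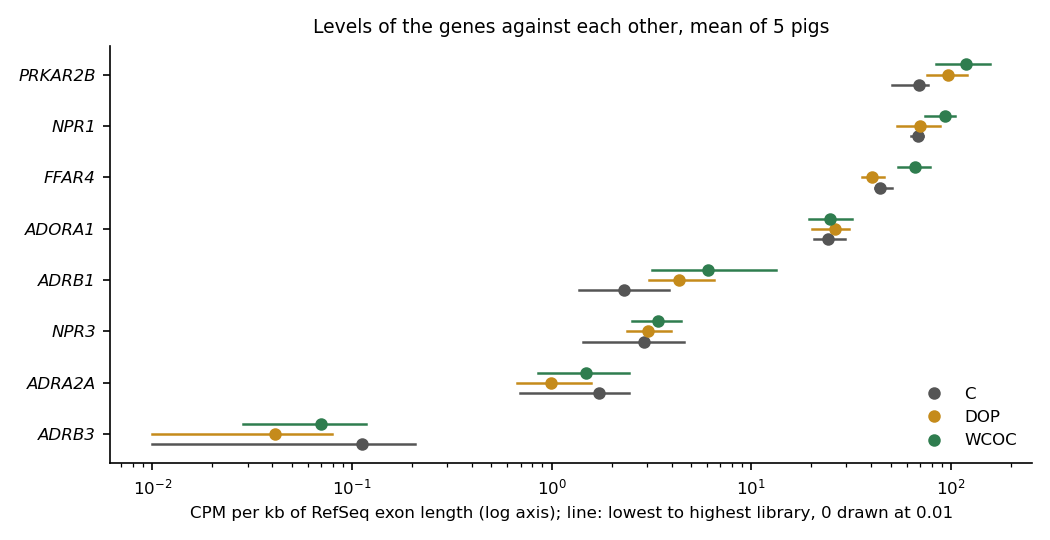
Mean level of each gene in CPM per kb of RefSeq exon length (log axis) by diet, with a line from the lowest to the highest of 5 libraries. PRKAR2B, NPR1 and FFAR4 sit at the top and ADRB3 stays under 0.21 CPM per kb in every library.

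Across the diets, FFAR4, the Gs-coupled receptor ADRB1 and the kinase subunit PRKAR2B were higher in WCOC than in C, and no difference passed for the Gi-coupled ADRA2A and ADORA1. Whether the changes of these genes differ from each other was not tested. Of the 7 genes that passed the filter on low counts, 3 were upregulated in WCOC compared to C (FFAR4, ADRB1 and PRKAR2B; past both limits, which were an adjusted p of 0.05 and a log2FC size of 0.58), beside 2.33% of all 14918 genes tested, and 0 were downregulated, beside 3.93%. Between WCOC and DOP, 1 of 7 was upregulated in WCOC (FFAR4), beside 2.65% of all genes, and 0 were downregulated, beside 5.11%. Between DOP and C, 0 of 7 passed in either direction, beside 0.764% of all genes. There, 2 of the 7 had an unadjusted p under 0.05 in edgeR, beside 17.6% of all genes. DESeq2 and limma-voom, as run here, also called 0. The study, which used DESeq2, lists ADRB1 and ADRA2A among its differentially expressed genes of DOP vs. C. For WCOC vs. C it reports higher expression of FFAR4 and lists ADRB1 and PRKAR2B among its differentially expressed genes. All values of WCOC lay above all values of C for 3 of the 7 genes (FFAR4, NPR1 and PRKAR2B), beside 3.75% of all genes, and all values of WCOC lay above all of DOP for FFAR4, beside 4.14%. The comparisons share their libraries and are not independent of each other. The calls of FFAR4 and ADRB1 against C were lost without some single libraries, that of PRKAR2B was kept without any 1 library, and all 3 were lost under some settings, given with each gene.

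**Figure D2:**
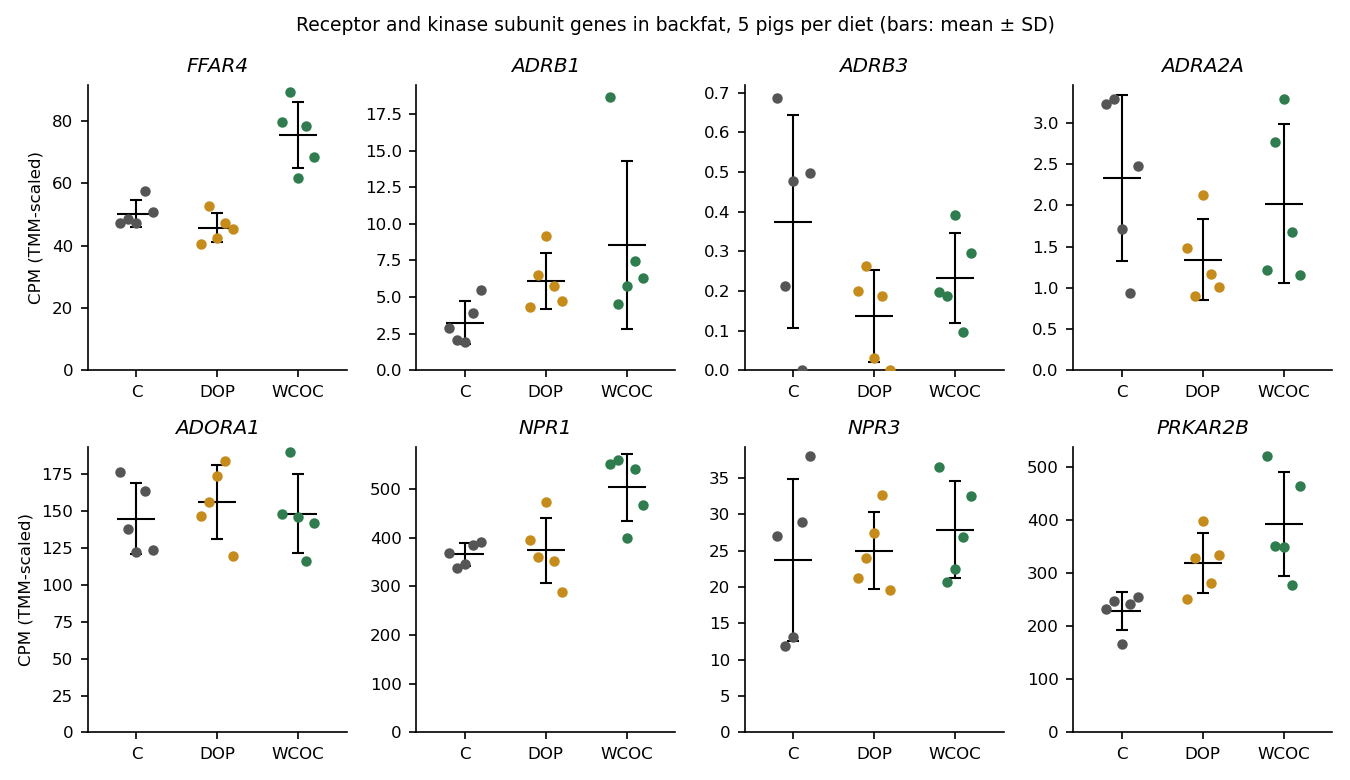
CPM of the 8 genes with values, each point 1 pig, with the mean and SD of each diet. The 5 WCOC values of FFAR4, between 61.7 and 89.2, lie above all 10 others, and 1 WCOC pig at 18.7 stands apart for ADRB1.

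**Figure D3:**
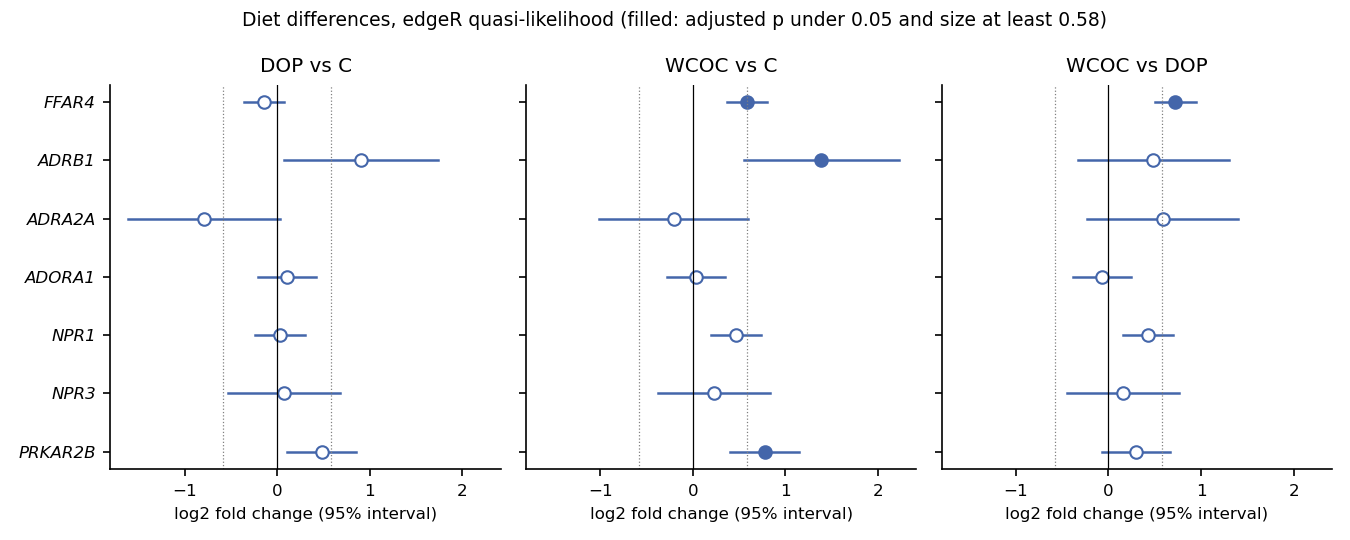
Log2 fold change of the 7 genes tested in the 3 comparisons, with 95% intervals from the edgeR quasi-likelihood fit and dotted lines at the limit of 0.58. Filled points passed both limits: 3 genes in WCOC vs. C, 1 in WCOC vs. DOP and 0 in DOP vs. C.

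FFAR4 (ENSSSCG00000010478), also known as GPR120, is a receptor for long-chain unsaturated fatty acids. Its level was 47.1, 48.4, 47.2, 57.6 and 50.8 CPM in the 5 C pigs, 40.6, 52.7, 42.4, 47.2 and 45.4 CPM in DOP, and 79.6, 89.2, 61.7, 78.2 and 68.4 CPM in WCOC. Every WCOC pig was above every pig of the other diets, while DOP and C overlapped. The gene was upregulated in WCOC compared to C (1.5-fold, log2FC 0.59, SE 0.10, edgeR adjusted p = 0.00357) and compared to DOP (1.65-fold, log2FC 0.72, SE 0.10, edgeR adjusted p = 0.00147). DOP and C did not differ beyond their spread (log2FC -0.14, 95% interval -0.35 to 0.08, edgeR adjusted p = 0.521). The difference from C lies at the limit of 0.58, and the call was lost without C1, C2, C3, DOP1, WCOC1, WCOC2 or WCOC4, in each case because the log2FC fell under that limit. It was likewise lost with DESeq2 and limma-voom (both 0.58 after rounding, just under the limit), and in all in 7 of 16 settings other than a single library left out. The log2FC stayed between 0.52 and 0.64 over all settings, and the adjusted p stayed under 0.05 in 29 of 31. The other two were the fit with macrophage markers as a covariate (adjusted p = 0.0912) and the fit without the 5 libraries rich in muscle markers (adjusted p = 0.0509).

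The difference of FFAR4 between WCOC and DOP passed in 29 of 30 settings. It was lost when flow cell was a covariate (log2FC 0.74, edgeR adjusted p = 0.253). The DOP libraries all ran on flow cell B, those of WCOC on flow cell A, and C5 was the only library of another diet on flow cell B. Within flow cell A, WCOC differed from C by a log2FC of 0.58 (edgeR adjusted p = 0.0280). In the RefSeq annotation of Sscrofa11.1, the FFAR4 transcript (chromosome 14, 105011983 to 105033569, 3 exons) is filed under a gene model joined with its neighbour PDE6C. The neighbour has its own identifier in the count files and was counted at 3.02 to 9.17 CPM. PDE6C, a phosphodiesterase of photoreceptors, was likewise higher in WCOC than in C (log2FC 0.90, SE 0.21, edgeR adjusted p = 0.0179). Whether reads of one gene were counted for the other was not tested.

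ADRB1 (ENSSSCG00000010647, chromosome 14, 124400330 to 124401739, 1 exon), the beta-1 receptor for noradrenaline and adrenaline, couples to Gs. Its level was 2.89, 2.09, 1.94, 3.90 and 5.47 CPM in C, 4.34, 6.53, 9.17, 5.78 and 4.71 CPM in DOP, and 18.7, 4.49, 5.78, 7.50 and 6.31 CPM in WCOC. In WCOC, 4 of 5 pigs were above the highest C pig, and WCOC1 stood far above the rest. The gene was upregulated in WCOC compared to C (2.62-fold, log2FC 1.39, SE 0.39, edgeR adjusted p = 0.0366). Without WCOC1 the log2FC fell to 0.88 and the call was lost (edgeR adjusted p = 0.115). It was also lost without C1, C2, C3, C4 or WCOC4 (adjusted p between 0.0538 and 0.0919). Within flow cell A the log2FC was 1.65 with an adjusted p of 0.0586 in edgeR. In settings other than a single library left out, the call of ADRB1 was kept in 8 of 16. It was lost with limma-voom, with adipocyte or macrophage markers as a covariate, and with the replicate number as a block.

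In DOP, ADRB1 was 1.87-fold the level of C, which did not pass after adjustment (log2FC 0.90, SE 0.39, unadjusted p = 0.0344, edgeR adjusted p = 0.245). WCOC and DOP differed by a log2FC of 0.49 (95% interval -0.33 to 1.30), and without WCOC1 by -0.02. ADRB1 was covered by 49 to 571 counts per library.

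ADRB3 (ENSSSCG00000015821), the beta-3 receptor that drives lipolysis in rodent fat, was barely detected. It had 14, 5, 15, 0 and 15 counts in C, 5, 7, 1, 5 and 0 in DOP, and 6, 5, 12, 3 and 10 in WCOC, at most 0.687 CPM. A count of 0 allows up to 3 counts, which is 0.117 CPM in C4 and 0.105 CPM in DOP5. The gene did not pass the filter. Fitted without it, no diet difference passed (edgeR adjusted p between 0.422 and 0.630), and none was detectable at this depth. The mean level per kb was 0.113 CPM for ADRB3 against 2.31 CPM for ADRB1 in C, and 0.0699 against 6.07 CPM in WCOC.

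ADRA2A (ENSSSCG00000010629, chromosome 14, 121469572 to 121470924), the alpha-2A receptor, answers to the same catecholamines through Gi and restrains lipolysis. It ran from 0.935 to 3.29 CPM in C with a median of 2.49, from 0.906 to 2.13 CPM in DOP with a median of 1.16, and from 1.15 to 3.30 CPM in WCOC with a median of 1.68. The ranges of the diets overlapped. DOP was below C by a log2FC of -0.79 (SE 0.38, edgeR unadjusted p = 0.0567, adjusted p = 0.300), and WCOC differed from C by -0.20 (95% interval -1.01 to 0.60). The gene was covered by 24 to 101 counts per library, and the intervals were wide accordingly.

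ADORA1 (ENSSSCG00000021059, chromosome 9, 113835279 to 113875899), the adenosine A1 receptor, is another Gi-coupled brake on fat cells. Its level was 122.4 to 176.2 CPM in C, 119.3 to 184.0 CPM in DOP and 115.8 to 189.8 CPM in WCOC, so that the 3 diets covered the same range. The log2FC was 0.11 for DOP vs. C (95% interval -0.21 to 0.42), 0.03 for WCOC vs. C (-0.28 to 0.35) and -0.07 for WCOC vs. DOP (-0.39 to 0.24). All 3 intervals lie within the limit of 0.58 in size. The gene overlaps the muscle gene MYBPH on the opposite strand, which had 6461 counts in DOP5. ADORA1 was at its lowest DOP value in that library, and so was the sum of the adipocyte markers (22716 CPM). Whether reads of one gene were counted for the other was not tested.

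NPR1 (ENSSSCG00000006572, chromosome 4, 95957220 to 95974253, 22 exons) is the receptor for atrial and B-type natriuretic peptides and carries the guanylyl cyclase that makes cyclic GMP. Its level was 368, 338, 345, 386 and 390.4 CPM in C, 395, 359.6, 473, 352 and 289 CPM in DOP, and 552, 559, 399.6, 540.2 and 466.4 CPM in WCOC. All WCOC pigs were above all C pigs, and 3 of 5 were above all DOP pigs. The difference from C was 1.38-fold (log2FC 0.46, SE 0.13, edgeR adjusted p = 0.0336) and from DOP 1.35-fold (log2FC 0.43, SE 0.13, edgeR adjusted p = 0.0397), both under the size limit of 0.58. With no limit on size, 4 of 7 genes were higher in WCOC than in C, beside 4.60% of all genes, and 2 of 7 higher than in DOP, beside 5.15%. Over all settings the adjusted p of NPR1 against C was under 0.05 in 17 of 31, with log2FC values between 0.39 and 0.55. Against DOP it was under 0.05 in 15 of 30, with log2FC values between 0.21 and 0.55 and an adjusted p of up to 0.662. DOP and C did not differ beyond their spread (log2FC 0.03, 95% interval -0.24 to 0.30).

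NPR3 (ENSSSCG00000036201, chromosome 16, 18841540 to 18929813), the clearance receptor that removes natriuretic peptides, showed no such difference. It ran from 11.8 to 38.0 CPM in C, 19.6 to 32.7 CPM in DOP and 20.7 to 36.6 CPM in WCOC. WCOC differed from C by a log2FC of 0.23 (95% interval -0.37 to 0.83, edgeR adjusted p = 0.645). The difference of the changes in NPR1 and NPR3 was not tested. NPR3 overlaps the RefSeq gene LOC102162488 on the opposite strand, and whether reads of one were counted for the other was not tested.

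PRKAR2B (ENSSSCG00000037706, chromosome 9, 106851044 to 106957519, 11 exons) encodes the RII-beta subunit of protein kinase A, the regulatory form typical of fat and brain. Its level was 232.3, 247.4, 167.2, 242.2 and 255.0 CPM in C, 251.5, 328.5, 398.3, 281.5 and 334.7 CPM in DOP, and 520.0, 351.6, 349.4, 277.2 and 463.5 CPM in WCOC. All WCOC pigs and 4 of 5 DOP pigs were above the highest C pig. The gene was upregulated in WCOC compared to C (1.71-fold, log2FC 0.78, SE 0.17, edgeR adjusted p = 0.0145). In DOP the log2FC against C was 0.48 (SE 0.17), which did not pass (edgeR unadjusted p = 0.0148, adjusted p = 0.176), and WCOC and DOP differed by 0.30 (95% interval -0.07 to 0.67). PRKAR2B overlaps the RefSeq gene LOC110262252 on the opposite strand, and whether reads of one were counted for the other was not tested.

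The call of PRKAR2B in WCOC vs. C was kept in all 15 fits with 1 library left out (log2FC 0.65 to 0.89) and within flow cell A (log2FC 0.81, edgeR adjusted p = 0.0460). It was lost with macrophage markers as a covariate (log2FC 0.62, edgeR adjusted p = 0.341) and, in fits chosen after seeing the data, without the 5 libraries rich in muscle markers (log2FC 0.65, adjusted p = 0.127) or without C3 and C5, the 2 libraries highest in macrophage markers (log2FC 0.70, adjusted p = 0.0810). In those same 3 fits ADRB1 had adjusted p values of 0.560, 0.246 and 0.0920, and 0 members were called against C. The part of macrophage and muscle RNA in these differences was not tested.

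**Figure D4:**
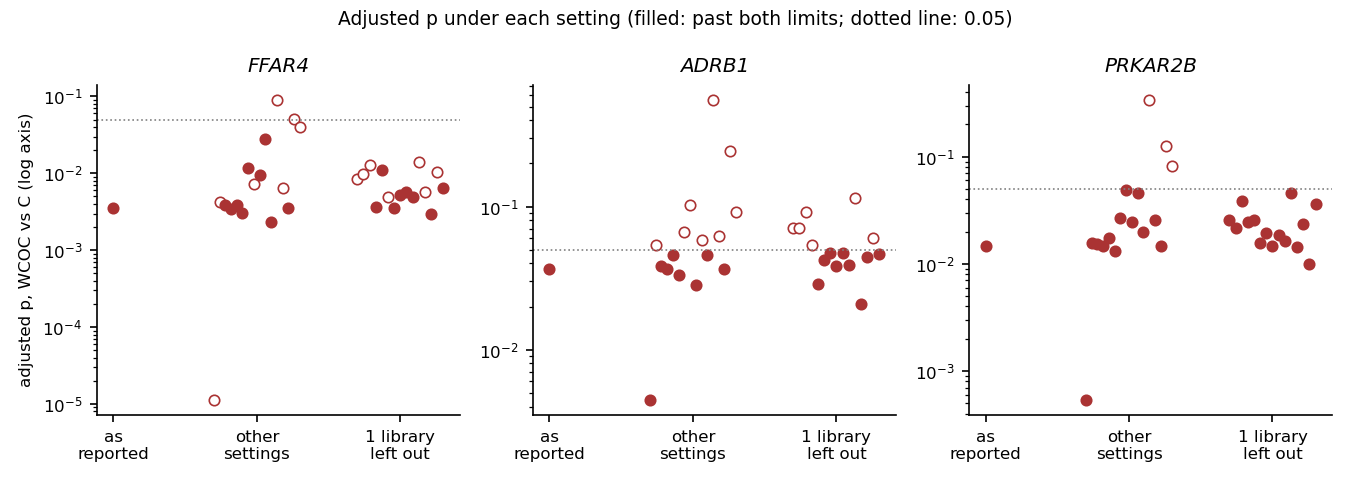
Adjusted p of FFAR4, ADRB1 and PRKAR2B in WCOC vs. C (log axis) as reported, under 16 other settings and with each of 15 libraries left out. Filled points passed both limits: FFAR4 in 17 of 31, ADRB1 in 17 of 31 and PRKAR2B in 28 of 31.

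The 250 bases before the annotated start are shown for NPR1 and PRKAR2B, whose WCOC values all lay above those of C, to set their starts side by side (RefSeq annotation of Sscrofa11.1, read 5′ to 3′ on the strand of the gene). The NPR1 window is chr4:95974254-95974503 on the minus strand and the PRKAR2B window chr9:106850794-106851043 on the plus strand. Capitals mark matches to the motifs searched on both strands: TGACGTCA, the cyclic AMP response element; its core TGACG, which the longer motif contains; AGGTCA of nuclear receptors; CACGTG, an E-box; and CCAAT.
NPR1: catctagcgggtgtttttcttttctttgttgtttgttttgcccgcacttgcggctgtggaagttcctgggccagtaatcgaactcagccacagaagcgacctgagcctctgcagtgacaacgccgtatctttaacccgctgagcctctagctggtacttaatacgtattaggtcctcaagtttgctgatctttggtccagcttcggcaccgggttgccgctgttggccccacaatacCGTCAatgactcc
PRKAR2B: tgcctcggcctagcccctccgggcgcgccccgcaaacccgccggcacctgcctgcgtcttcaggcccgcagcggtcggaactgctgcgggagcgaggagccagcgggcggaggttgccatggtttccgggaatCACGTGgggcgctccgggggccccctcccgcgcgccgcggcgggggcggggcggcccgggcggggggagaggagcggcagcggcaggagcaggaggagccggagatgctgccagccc
The window of PRKAR2B was rich in G and C (78.4%, against a median of 58% over 19556 windows of all genes) and held 1 E-box, a motif present in 6.16% of windows. The window of NPR1 had 52.0% G and C, 47.2% of its bases lie in masked repeats, and it held 1 TGACG, read as CGTCA on this strand and present in 19.8% of windows. TGACGTCA was in neither, and is in 1.66% of all windows. The FFAR4 window is not shown, since 95.2% of it lies in masked repeats, nor is that of ADRB1, whose gene model starts at the coding sequence, so that the window may not lie before the start of transcription. A match of letters does not show that a factor binds there.

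Genes with the most similar profile over the 15 libraries were ranked by Pearson r of log2 CPM among 11132 genes, as a description. PRKAR2B was most like ADIPOQ, the adiponectin gene (r = 0.92, Spearman rho = 0.93), RIMKLB (r = 0.91) and ZMAT1 (r = 0.88). ADIPOQ was also among the 3 most like ADRB1 (r = 0.87, rho = 0.75), after EZH1 (r = 0.91) and MARF1 (r = 0.88). FFAR4 was most like KIZ (r = 0.90), CLUAP1 (r = 0.90) and CRYM (r = 0.89). With the diet means removed, r was 0.86 for PRKAR2B and ADIPOQ but 0.61, 0.50 and 0.40 for the partners of FFAR4. NPR1 was most like OSBPL2 (r = 0.94), DENND5A (r = 0.93) and TCFL5 (r = 0.93). ADORA1 was most like ADI1 (r = 0.94), AKT2 (r = 0.88) and KDF1 (r = 0.88), ADRA2A most like ANGPT4 (r = 0.81), EDEM2 (r = 0.80) and ADAP2 (r = 0.77), and NPR3 most like PLPP6 (r = 0.77), SCG5 (r = 0.76) and PPP4R3B (r = 0.75). The libraries share diet, depth and cell makeup, and the highest of many r values are high by selection.

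The genes around the receptors gave a mixed picture in WCOC vs. C, where the counts of each list stand beside 2.33% of all genes called higher, 3.93% called lower and 26.4% at an unadjusted p under 0.05. Among 9 other Gs-coupled receptors tested, 2 were upregulated and 0 downregulated, with a median log2FC of 0.49 beside 0.004 over all genes: PTGER2 (22.5 ± 5.78 CPM in C, 37.9 ± 5.41 in WCOC, log2FC 0.76) and PTGER4 (13.2 ± 3.32 and 21.8 ± 2.32 CPM, log2FC 0.72), both prostaglandin E2 receptors (SD, n = 5). The most abundant of the list per kb, the thyrotropin receptor TSHR, had 24.0 ± 6.91 CPM in C and 33.7 ± 10.8 CPM in WCOC and did not pass (edgeR adjusted p = 0.234). Among 9 other Gi-coupled receptors, edgeR called 0 in any comparison, with a median log2FC of 0.08 in WCOC vs. C and 3 at an unadjusted p under 0.05 there, beside 26.4% of all genes. The most abundant, the sphingosine 1-phosphate receptor S1PR1, had 61.7 ± 8.35 CPM in C and 79.6 ± 9.47 CPM in WCOC (edgeR adjusted p = 0.0626).

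Downstream, the 15 tested genes of G proteins and adenylyl cyclases had 1 downregulated, ADCY8 (log2FC -1.14, at only 0.586 ± 0.149 CPM in C), and a median of -0.01. The beta subunit GNB1, the most abundant, was at 299 ± 9.59 CPM in C and 307 ± 17.9 in WCOC. Of 14 genes of protein kinase A and its anchors, 2 were upregulated: AKAP12, an anchoring protein (104.5 ± 9.96 CPM in C, 198.4 ± 36.8 in WCOC, log2FC 0.92, SE 0.14), and the kinase inhibitor PKIB (10.7 ± 2.93 and 18.4 ± 4.77 CPM, log2FC 0.79). PRKAR1A, the most abundant regulatory subunit of that list, changed little (172.3 ± 17.3 and 190.7 ± 17.5 CPM, log2FC 0.15, edgeR adjusted p = 0.289). Kinases and arrestins that silence receptors, with RGS proteins, had 0 of 9 called by edgeR (3 at an unadjusted p under 0.05). GRK3, the most abundant, was at 149.2 ± 22.5 CPM in C and 136.9 ± 17.2 in WCOC.

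**Figure D5:**
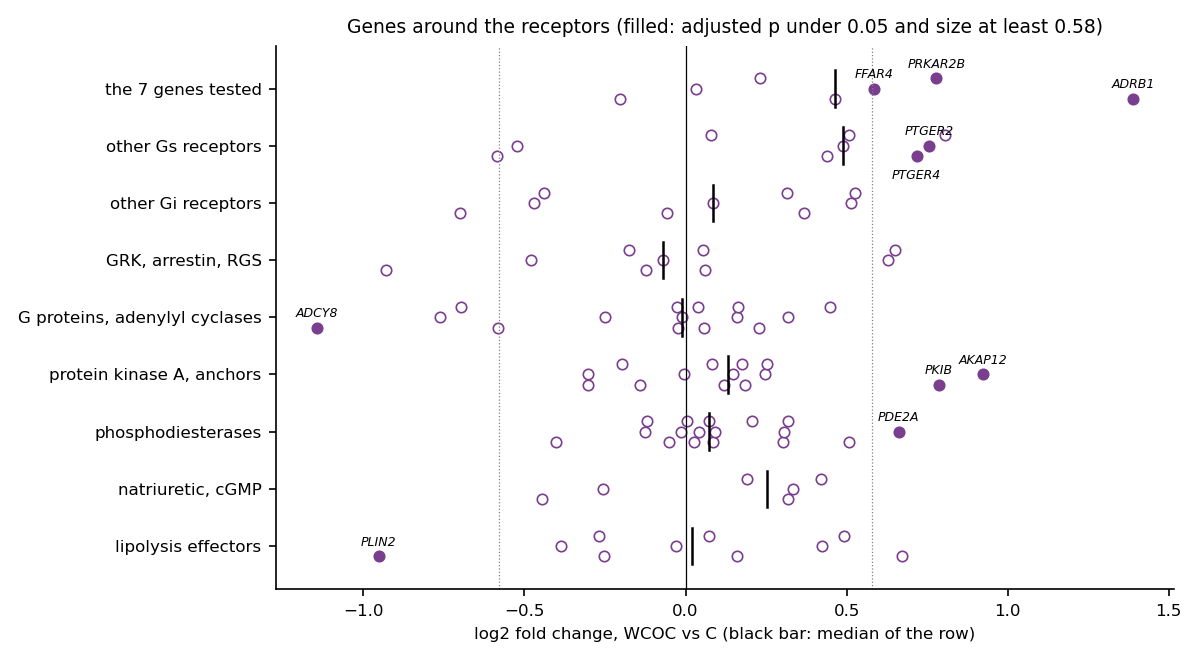
Log2 fold change of each tested gene in WCOC vs. C, by list, with the median of the list as a black bar. Named, filled points passed both limits. The 7 genes of the report have a median of 0.46 and the lipolysis effectors one of 0.02.

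PDE2A, a phosphodiesterase that cyclic GMP switches on to degrade cyclic AMP, was upregulated in both olive diets. Its level was 62.5 ± 6.10 CPM in C, 93.9 ± 11.5 in DOP and 98.9 ± 10.4 in WCOC (log2FC 0.59, edgeR adjusted p = 0.0277 for DOP; 0.66, adjusted p = 0.00133 for WCOC), the highest C pig at 72.3 CPM and the lowest DOP pig at 82.1 CPM. The call in DOP was lost without C3, C5, DOP2 or DOP4, with the replicate number as a block, and without the muscle-rich or the macrophage-rich libraries. In these fits edgeR called 0 genes of the whole table in DOP vs. C. PDE2A was not followed in the other fits, where the calls of the whole table in DOP vs. C ran from 1 without DOP5 to 518 with DESeq2. The endothelial marker sum moved the same way in DOP, above all C libraries, and its part in the difference of PDE2A was not tested. The other 16 tested phosphodiesterases did not pass against C, PDE3B among them (214.7 ± 33.7 CPM in C, 227.8 ± 44.1 in WCOC), the enzyme through which insulin restrains lipolysis and the most abundant of the list. Of 6 tested natriuretic peptide and cyclic GMP genes 0 were called in WCOC vs. C by edgeR (5 at an unadjusted p under 0.05), and FURIN, the most abundant per kb of the 8 genes of the list with an exon length, had no call (log2FC -0.26, edgeR adjusted p = 0.0578). The peptide gene NPPB had no count in any library.

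Of the enzymes and droplet proteins that carry out lipolysis, 10 were tested. Of these 0 were upregulated and 1 was downregulated in WCOC compared to C, with a median log2FC of 0.02: PLIN2, a coat protein of small lipid droplets (154.2 ± 51.1 CPM in C, 79.7 ± 14.3 in WCOC, log2FC -0.95, SE 0.20, edgeR adjusted p = 0.00946). The highest C pigs were C5 at 237 CPM and C3 at 169 CPM, the libraries highest in macrophage markers, whose part was not tested, and C1, C2 and C4 were at 117 to 128 CPM against 67.0 to 104 CPM in WCOC. PNPLA2, the lipase that takes the first fatty acid, was at 642 ± 168.3 CPM in C and 675 ± 90.8 in WCOC (log2FC 0.07), and LIPE, hormone-sensitive lipase, had a log2FC of 0.42 that did not pass (edgeR adjusted p = 0.0831). The perilipin gene PLIN1 was at 2592 ± 451 CPM in C and 3648 ± 444 in WCOC. Its adjusted p passed but its size did not (log2FC 0.49, edgeR adjusted p = 0.0427). An unadjusted p under 0.05 in edgeR held for 4 of the 10, beside 26.4% of all genes. Of these, LIPE and PLIN1 were higher in WCOC and ABHD5 and PLIN2 lower. FABP4, the fatty acid carrier and most abundant of the list, was at 3431 ± 340.2 CPM in C and 3362 ± 567 in WCOC.

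Between WCOC and DOP, the same lists held further calls, but flow cell separates these diets, and with flow cell as a covariate edgeR called 1 gene of the whole table where it had called 1158. The receptors MC5R (log2FC 0.78) and PTGER2 (0.79), the anchor AKAP12 (0.91) and G0S2, an inhibitor of PNPLA2 (1.40), were higher in WCOC. ADCY2, ADCY8, PRKAR2A, PKIA, PDE4B, PDE4C and the peptidase MME were lower. For ADCY2, PRKAR2A, PKIA, PDE4B and PDE4C the highest value was in DOP5, the library with the most muscle RNA: ADCY2 was at 80.1 CPM there and at 6.82 CPM in DOP3, and PDE4C at 73.2 and 1.17 CPM. ADCY8 was highest in DOP1 (0.924 CPM) and MME in DOP2 (17.6 CPM). The part of muscle RNA in these differences was not tested. MME, which degrades natriuretic peptides, was above every WCOC pig in all 5 DOP pigs (13.98 ± 2.69 CPM against 7.57 ± 1.04; log2FC -0.88, edgeR adjusted p = 0.00674).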

How the data were processed

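RNA of backfat from 5 pigs per diet was read as 15 libraries. The authors aligned read pairs to Sscrofa11.1 with HISAT2 (reads declared strand-specific) and assigned them to Ensembl genes by HTSeq-count, without trimming. The deposited values are these raw counts per gene, neither normalized nor pooled; versions, annotation release and the strand option of the counting are not given in the sources used here. Summary lines of uncounted pairs (23.4% to 32.8% of a library) stayed out of library sizes.

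CPM and log2 values were computed here from the deposited counts with edgeR 4.0.16 in R 4.3.3: filterByExpr (14918 of 30477 genes), TMM scaling and a quasi-likelihood fit with 1 mean per diet over all 15 libraries, with two-sided p values adjusted by Benjamini-Hochberg across the genes tested. A call needed an adjusted p below 0.05 together with a log2FC size of 0.58 or more, the limits of the study. log2 CPM used a prior count of 1, and SE values came from unshrunk coefficients and F. Replicates are separate pigs. Diet and number come from the labels, flow cell from the run identifiers. Symbols and identifiers were matched through reference tables (14864 symbols), and exon lengths, positions and upstream windows come from RefSeq (Sscrofa11.1), read with pysam 0.24.0. The intervals of log2FC are 95%. Read pairs carry no molecular identifiers, so limits from counts cover counting error only.

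Members, pathway lists and marker lists were chosen with earlier results of these data known. All members were described, and of each list the genes past both limits (at most 6) and the one with the most counts per kb. For PNPLA2, LIPE, PLIN1 and NPPB, values were added after they were seen. For each member, the 3 most similar genes with a mean of at least 1 CPM were named. Alternatives were DESeq2 1.42.0, limma-voom (limma 3.58.1), other scalings and filters, only the diets compared, replicate number as a block, flow cell or marker lists as covariates, flow cell A alone, no limit on size, and each library left out. The fit was tested on simulated data with known changes.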

Additional observations from a re-analysis of the deposited data

Results flagged for a closer look

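Of 24 groups of 5 pigs (8 genes in 3 diets), 2 held a value far from the other four by Dixon's ratio of gap to range, where chance gives about 1 in 20 groups. ADRB1 in WCOC1 was at 18.7 CPM, with the next WCOC pig at 7.50 CPM (ratio 0.788, limit 0.71). PRKAR2B in C3 was at 167.2 CPM, below the next C pig at 232.3 CPM (ratio 0.741). C3 was among the libraries high in macrophage and muscle markers, and its part in the low value was not tested.

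The effects of the 2 olive diets on FFAR4 against the common control differed: WCOC was above DOP by a log2FC of 0.72 in edgeR (adjusted p = 0.00147), with all 5 WCOC pigs above all 5 DOP pigs. Flow cell separates these 2 diets and cannot be told apart from them except through C5.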

How the results depend on the processing

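With 31 alternatives for WCOC vs. C and 30 for each other comparison, DOP vs. C kept 0 members called throughout. In WCOC vs. C, 3 members were called as reported; limma-voom gave 1, adipocyte markers as a covariate 1, macrophage markers as a covariate 0, and leaving out 1 library gave 1 to 3. Leaving out the libraries over 1000 CPM of muscle markers or over 400 CPM of macrophage markers, both chosen after seeing the data, gave 0 and 0. In WCOC vs. DOP, 1 was called as reported, 0 with flow cell as a covariate, 2 with no limit on the log2FC and 1 in each fit without 1 library. Changes of sign were limited to differences that did not pass. With flow cell as a covariate the log2FC was -0.063 for NPR1 and -0.60 for NPR3 in DOP vs. C and -0.018 for ADORA1 in WCOC vs. C, which was -0.026 within flow cell A. With adipocyte markers as a covariate, NPR1 was at -0.00077 in DOP vs. C and ADORA1 at -0.12 in WCOC vs. C. Without the muscle-rich libraries NPR3 was at -0.12 in DOP vs. C, and without the macrophage-rich ones ADORA1 was at -0.038 in DOP vs. C and -0.11 in WCOC vs. C. With single libraries left out, NPR3 in DOP vs. C ranged from -0.10 to 0.30, NPR1 in DOP vs. C from -0.066 to 0.11, ADORA1 in WCOC vs. C from -0.072 to 0.11, ADORA1 in WCOC vs. DOP from -0.18 to 0.012 and ADRB1 in WCOC vs. DOP from -0.023 to 0.68. The causes were not tested.

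The same replicate number does not pair the pigs: deviations from the diet means correlated between -0.50 and 0.34 for same-numbered libraries, and 1 of 15 correlated best with its own number. With the number as a block, 1 member was called in WCOC vs. C and the all-gene counts fell from 114, 933 and 1158 (DOP vs. C, WCOC vs. C, WCOC vs. DOP) to 0, 473 and 561. Over all genes, DOP vs. C gave 518 calls with DESeq2, 19 with limma-voom, 2 with only the diets compared, 41, 3 and 53 with muscle, macrophage and adipocyte covariates, and 0 without the muscle-rich or the macrophage-rich libraries. WCOC vs. C gave 45 with the macrophage covariate, 460 within flow cell A, 353 and 306 without the muscle-rich and macrophage-rich libraries and 1493 with no limit on size. WCOC vs. DOP gave 1 with flow cell as a covariate, 449 with the muscle covariate, 90 without the muscle-rich libraries and 1842 with no limit. With 1 library left out the counts ran from 0 to 187, 457 to 1166 and 641 to 1271. Depth limits ADRB3, ADRA2A and ADRB1, the members with the fewest counts.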
